A study of Mus musculus with 21 samples.

Results

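Interferon-stimulated genes are the genes that cells switch on when type I interferons (IFN-α and IFN-β) or type II interferon (IFN-γ) bind their receptors. The 43 genes described here were chosen by symbol from that definition, and they are 43 of the 50406 genes outside the sex chromosomes and the mitochondrial genome. They comprise 2 genes of the ubiquitin-like modifier system, 8 IFIT and other antiviral effectors, 6 genes of the OAS family, 2 Mx GTPases, 4 transcription factors, 5 nucleic acid sensors, 4 guanylate-binding proteins, 4 immunity-related GTPases, 5 membrane and trafficking proteins and 3 other members.

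RNA-Seq was performed on 21 libraries from wildtype mice, of blood neutrophils (polymorphonuclear neutrophils, PMNs) and of tubular epithelial cells of the kidney (TECs), both collected 24 hours after surgery. Mice underwent a sham operation or renal ischemia-reperfusion injury (IRI) by temporary clamping of the renal pedicles, and either operation followed remote ischemic preconditioning (RIPC), brief occlusions of a hind limb by an inflated cuff, or a control procedure. The PMN groups held 2 libraries after sham surgery without RIPC (sham control), 3 after sham surgery with RIPC (sham RIPC), 2 after IRI without RIPC (IRI control) and 3 after IRI with RIPC (IRI RIPC), and the TEC groups held 3, 3, 2 and 3 libraries in the same order. All groups shared the wildtype genotype (young adult male C57BL/6 mice), RNA was taken from sorted cells, and the study calls the libraries of a group biological replicates. The labels do not say whether each library came from a separate animal, and if it did not, the p-values below measure the spread between these libraries.

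In the classical pathway, type I interferon binds the receptor made of Ifnar1 and Ifnar2, the receptor's kinases Jak1 and Tyk2 activate transcription factors of the STAT family, Stat2 among them, and a complex with Irf9 binds the interferon-stimulated response element (ISRE) in promoters. IFN-γ binds Ifngr1 and Ifngr2 and acts on the gamma-activated site (GAS), with Irf1 as an early target. The products restrict viral entry, translation and replication, sense foreign nucleic acids, and attack vacuoles that hold pathogens, and neutrophils are among the cells in which these genes are known to be readily induced.

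The promoters of the genes on which the results turn are shown because the letters of both elements can be read in them. RefSeq windows from 250 bases before to 50 bases after a transcription start (GRCm38.p6) were available for 33 of the 43 genes, and Dhx58, Ifi204, Iigp1, Mx1, Mx2, Oas2, Parp14, Rtp4, Usp18 and Zbp1 had none. The letters GAAANNGAAA, the core of the ISRE, were found on either strand in 21 of the 33 genes (63.6%), against 3.99% of the 27025 genes with a window. The letters TTCNNNGAA of the GAS were found in 9 of the 33 (27.3%), against 9.55% of all, and ISRE and GAS matches overlapped in 2 windows of these genes, that of Bst2 among them. A match describes the letters in the window and was not tested as a binding site. Each stretch below is printed 5′ to 3′ on the gene's strand with 20 bases on either side of the matches, which are in capitals, except that the stretch of Oas1a ends at the last base before the start. They are ISRE matches, except in Irf1, where the capitals mark the GAS letters.
Isg15: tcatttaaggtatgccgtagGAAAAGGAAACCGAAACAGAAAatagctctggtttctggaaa
Ifit1: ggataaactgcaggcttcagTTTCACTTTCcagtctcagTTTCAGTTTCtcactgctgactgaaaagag
Oas1a: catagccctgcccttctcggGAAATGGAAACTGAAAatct
Bst2: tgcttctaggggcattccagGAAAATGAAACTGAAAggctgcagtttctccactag
Ifitm2: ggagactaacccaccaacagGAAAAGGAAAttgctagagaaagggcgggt
Trim30a: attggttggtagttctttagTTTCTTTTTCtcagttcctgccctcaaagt
Irf1: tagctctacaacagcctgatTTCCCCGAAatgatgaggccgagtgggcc

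The stretch of Isg15 lies at chr4:156200855-156200916 on the minus strand, that of Ifit1 at chr19:34640765-34640833 on the plus strand, that of Oas1a at chr5:120907526-120907565 on the minus strand and that of Bst2 at chr8:71537567-71537622 on the minus strand. Ifitm2 is shown from chr7:140955978-140956027 on the minus strand, Trim30a from chr7:104465200-104465249 on the minus strand and Irf1 from chr11:53769904-53769952 on the plus strand. All of these bases precede the RefSeq start of the gene. Isg15 carried 3 overlapping ISRE matches, Ifit1 carried 2 that did not overlap, Oas1a and Bst2 carried 2 overlapping matches each, and Ifitm2 and Trim30a carried 1. Among the genes with a window, Irf7, Irf9, Ifitm1, Oasl2, Ifi47 and Cmpk2 were among the 12 without an ISRE match in it.

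Libraries held 20881334 to 30507235 reads in PMNs and 21479605 to 51624602 in TECs, so that 3 reads, the limit that a count of 0 allows, corresponded to 0.0581 to 0.144 CPM (counts scaled to library size). That limit covers counting error only, since the reads carry no molecular identifiers. Neutrophil markers summed to 6198 to 28524 normalized CPM in PMNs after sham surgery and to 13227 to 35400 after IRI, ranges that overlapped, and 8 of the 11 were above 3 reads in every PMN library (all but Camp, Ngp and Ltf). In TECs they summed to 1.72 to 32.4 after sham surgery, where 3 were at 0 in every library, and to 34.6 to 109 after IRI, without overlap. The labels give blood as the source of the PMNs and do not describe the purity of the sort. PMN libraries were not free of other cells. Of 10 monocyte and macrophage markers, 9 were above 3 reads in all of them and Cx3cr1 in all but 1, and their sum fell into separate ranges, 3191 to 9828 after sham surgery and 1219 to 2330 after IRI. All 10 proximal tubule markers were also present, with sums of 1803 to 14899 after sham surgery and 746 to 1478 after IRI. In TECs the proximal tubule markers summed to 20450 to 39417 after sham surgery and to 4187 to 14343 after IRI, again without overlap, and monocyte and macrophage markers to 3.31 to 43 over all 11 libraries. In bulk libraries such as these, fewer cells of a type and less RNA per cell cannot be told apart.

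**Figure D1:**
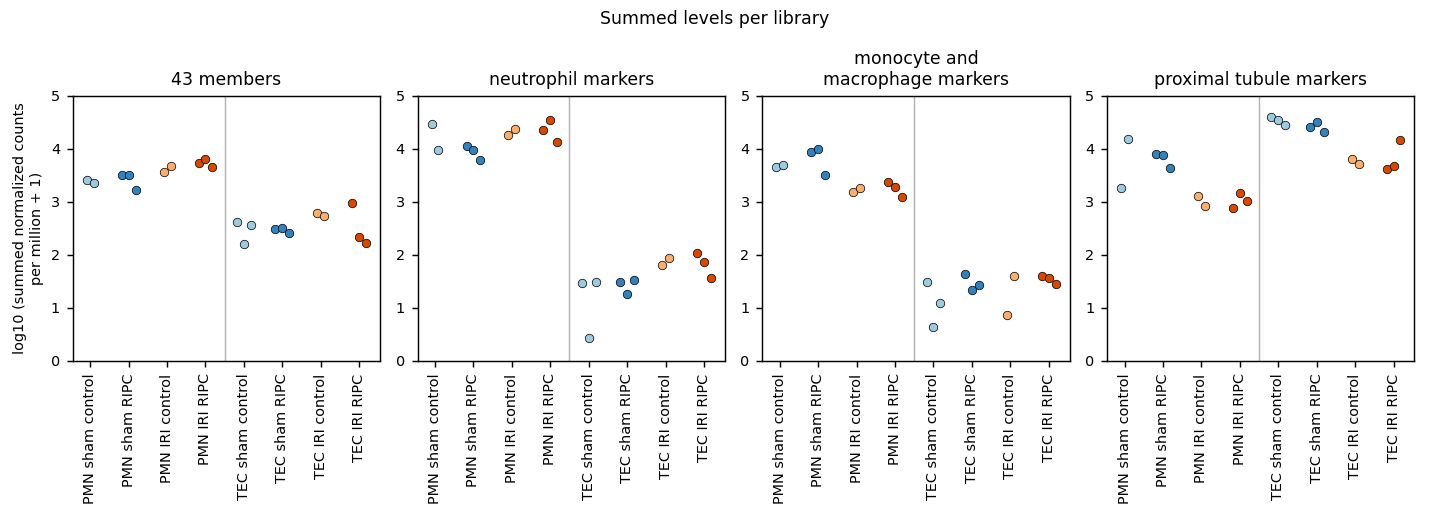
Sums per library, in log10 of normalized CPM plus 1, of the 43 interferon-stimulated genes and of 3 marker lists, with 1 point per library and 1 column per group. The 43 genes sat higher after IRI than after sham surgery in PMNs (3669 to 6443 against 1657 to 3166), where monocyte and macrophage markers and proximal tubule markers sat lower.

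The 43 genes were far more abundant in PMNs than in TECs. Summed over the 43, TMM-normalized CPM (the scale of all levels below, unless TPM is named) were 1657 to 3166 in PMNs after sham surgery, 3669 to 6443 in PMNs after IRI, 160 to 411 in TECs after sham surgery and 163 to 925 in TECs after IRI. In PMNs the ranges of sham surgery and IRI did not overlap. A large part of the PMN sums came from the Ifitm genes, and without Ifitm1, Ifitm2 and Ifitm3 the sums were 637 to 1627 and 776 to 2863 in PMNs, which overlapped. A PMN library held 31 to 43 of the genes above 3 reads and a TEC library 15 to 33. All 10 PMN libraries shared 21 of the genes above 3 reads, and all 11 TEC libraries shared 6.

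**Figure D2:**
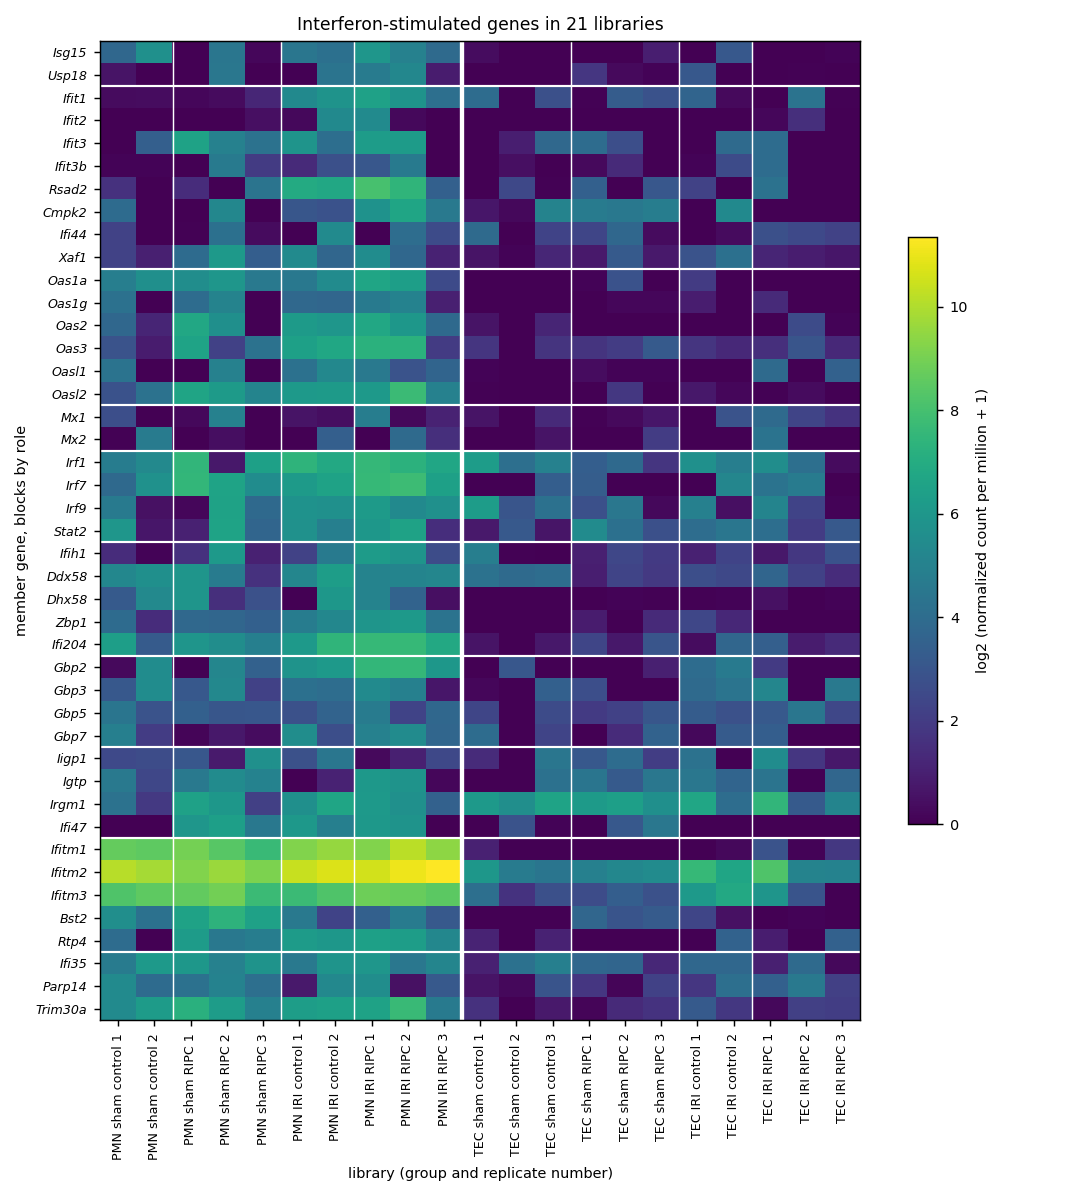
Heat map of the 43 interferon-stimulated genes (rows, in blocks by role) in 21 libraries (columns, by group and replicate), coloured by log2 of the normalized CPM plus 1. Ifitm1, Ifitm2 and Ifitm3 form the brightest rows in PMNs, and many other genes are near 0 in 1 library of a group and well above it in the next.

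Compared per length as TPM, the order in PMNs was led by the Ifitm genes, small membrane proteins that hinder the fusion of enveloped viruses with cell membranes. Ifitm2 averaged 1698 TPM (range over 10 libraries, 731 to 3395), Ifitm1 averaged 815 TPM (315 to 1578) and Ifitm3 averaged 481 TPM (308 to 675). Neighbours in this order overlapped in their ranges. Bst2 (tetherin), which holds budding virions at the cell surface, followed with 49.7 TPM (3.90 to 175), and Trim30a, a restriction factor of the TRIM family, with 34.6 TPM (10.7 to 94.5), so that a wide step separated the Ifitm genes from the rest. In TECs the order was Ifitm2 with 87.9 TPM (24.2 to 373), Ifitm3 with 27.6 TPM (0 to 102), Irgm1 with 13.8 TPM (1.71 to 38.1), Irf1 with 5.86 TPM (0.0888 to 15.0) and Ifi35 with 5.18 TPM (0.0675 to 15.2), and all of these ranges overlapped. Of the 606 stretches of 50 bases in the Ifitm2 transcripts, 48.5% also occur in transcripts of other genes, mostly Ifitm pseudogenes, so that reads of Ifitm2 may be divided between these loci.

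In PMN libraries, IRI was set against the sham operation, with equal weight for RIPC and control groups, to ask how kidney injury appears there. Ifit1 rose, from levels near the limit of detection in every sham library. Ifit1 (chromosome 19, 34640871 to 34650009, plus strand), whose product binds viral RNA that lacks the host's cap methylation, was at 0.244 and 0.287 in sham control and at 0.149, 0.273 and 1.30 in sham RIPC, which are 3 to 25 reads. It was at 40.7 and 55.2 in IRI control and at 89.7, 55.3 and 16.8 in IRI RIPC. Every PMN library of IRI lay above every PMN library of sham surgery, by at least an order of magnitude. The mean was 0.450 ± 0.477 (SD, n = 5) after sham surgery and 51.6 ± 26.5 (SD, n = 5) after IRI, a fitted log2 fold change of 7.00 (SE 1.06, adjusted p = 0.0359 by edgeR's quasi-likelihood test). The closest relatives share little of its sequence, since 7.13% of its stretches of 50 bases occur in other genes. The call was lost in 8 of the 10 fits that left out 1 PMN library (adjusted p-values of 0.0533 to 0.161 by edgeR), and kept without replicate 1 (adjusted p = 0.0432) and without replicate 3 of sham RIPC (adjusted p = 0.0213). It was also lost in a fit of all 21 libraries (adjusted p = 0.185) and with the second file of each library alone (adjusted p = 0.0874), and the fitted change stayed between 6.55 and 7.70 in all alternatives.

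Ifit1 was the 1 gene of 43 that passed the threshold, in a comparison in which 0.364% of the 25002 genes tested were called higher, and none of the 43 was called lower, where 0.052% of all genes were. At an unadjusted p under 0.05, 11 of the 43 were higher and 1 was lower, against 6.85% and 4.98% of all genes tested. The fitted change was above 0 for 34 of the 43, against 49.7% of all genes, and its median was 1.26 on the log2 scale, against -0.01 over all genes and 1.14 over the 41 genes with reads in every group. Neutrophil markers moved the same way, with 9 of 11 above 0, a median of 1.39 and 5 of 11 higher at an unadjusted p under 0.05, and their part in the result was not tested. All 8 of the IFIT and other antiviral effectors, all 6 OAS genes and all 4 transcription factors had a fitted change above 0, as did 4 of 5 nucleic acid sensors, 3 of 4 guanylate-binding proteins and 3 of 5 membrane proteins, both genes of the ubiquitin-like modifier system, 2 of 4 immunity-related GTPases, 1 of 2 Mx GTPases and 1 of the 3 other members. Groups did not overlap for 5 of the 43, all higher after IRI, against 3.47% of all genes tested in that direction. These were Ifit1, Ifitm1, Ifitm2, the nucleic acid sensor Zbp1 and the guanylate-binding protein Gbp2.

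**Figure D3:**
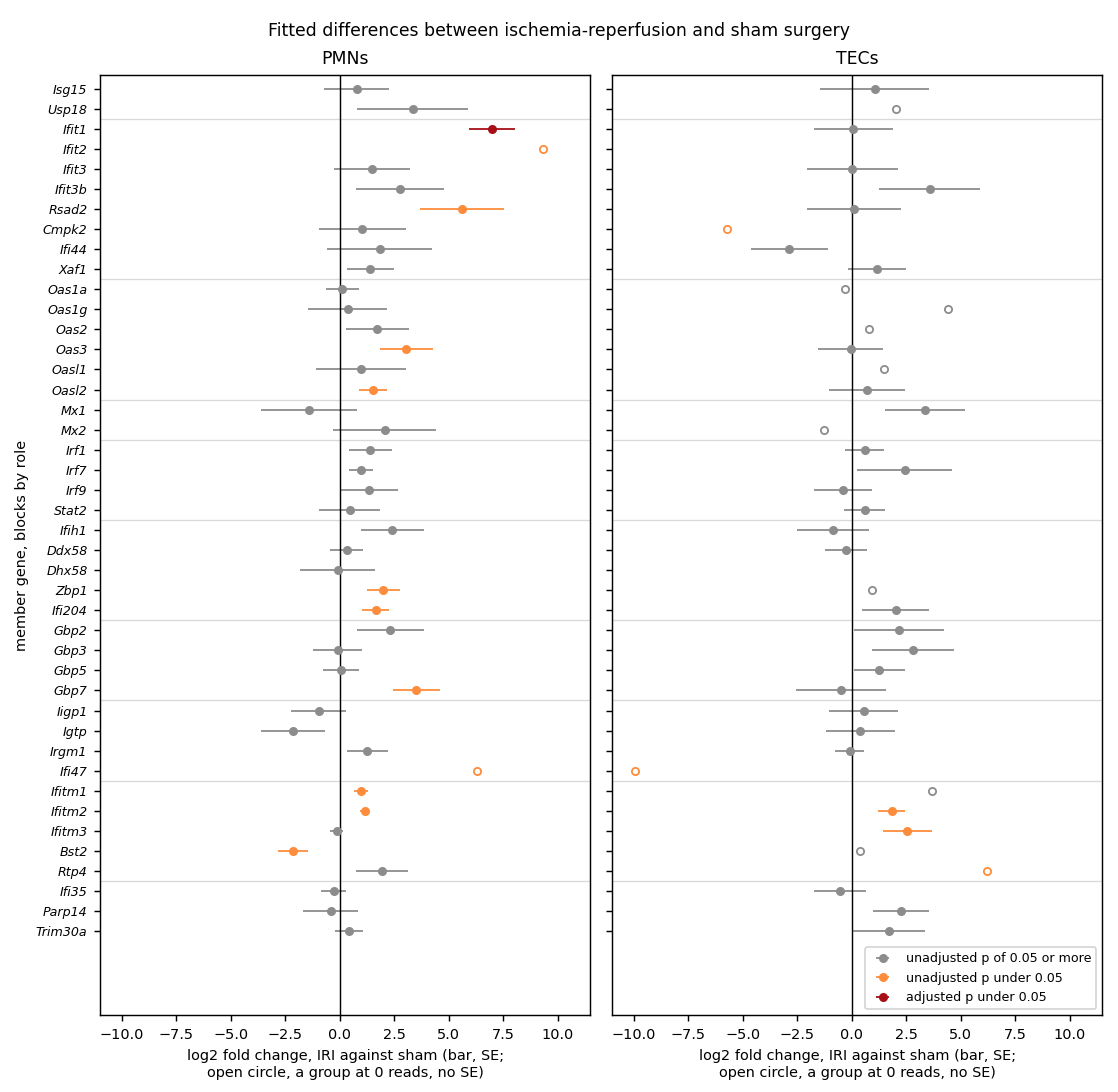
Fitted log2 fold changes of IRI against sham surgery (x axis) for the 43 genes (rows, in blocks by role) in PMNs (left) and in TECs (right), with bars of 1 SE and open circles without a bar where a group was at 0 reads. In PMNs 34 of 43 points lie above 0 and Ifit1 alone passed the threshold at 7.00, and in TECs 29 of 41 lie above 0 and none passed.

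The genes described next did not pass the threshold, and apart from the most abundant genes and the regulators they were chosen after their values were seen. Rsad2 (viperin), an enzyme that makes a chain-terminating nucleotide against viral polymerases, was at 2.07 and 0 in sham control, 1.68, 0 and 19.6 in sham RIPC, 122 and 113 in IRI control and 268, 173 and 10.1 in IRI RIPC. Replicate 3 of IRI RIPC lay below 1 of the libraries of sham surgery, and all the others of IRI lay above them (log2 fold change 5.61, SE 1.95, adjusted p = 0.366 by edgeR's quasi-likelihood test). Ifit2, on chromosome 19 like Ifit1, had 1038 reads in 1 IRI control library and 1031 in 1 IRI RIPC library, and at most 7 reads in each of the other 8. That same replicate 3 held the lowest level among the IRI libraries for Ifit1, Rsad2 and Oas3, and its 43 genes without the Ifitm genes summed to 776, inside the range of sham surgery.

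Ifitm2 had levels of 1124 and 901 in sham control, 596, 791 and 551 in sham RIPC, 1372 and 1729.5 in IRI control and 1508, 2122 and 2621 in IRI RIPC. The groups did not overlap, with means of 792 ± 234 (SD, n = 5) after sham surgery and 1870.4 ± 507 (SD, n = 5) after IRI (log2 fold change 1.14, SE 0.22, adjusted p = 0.0866). Ifitm1 had 407 and 366 in sham control, 509, 342 and 209 in sham RIPC, 581 and 749 in IRI control and 595, 1171 and 682 in IRI RIPC, again without overlap (log2 fold change 0.98, SE 0.31, adjusted p = 0.331). Their neighbour Ifitm3 overlapped throughout, at 300.5 and 375, at 395, 497 and 215, at 213 and 301, and at 461, 422 and 356 in the same order of groups (log2 fold change -0.13, SE 0.30, adjusted p = 0.942). The 3 Ifitm genes lie on chromosome 7 between 140954837 and 141010770.

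**Figure D4:**
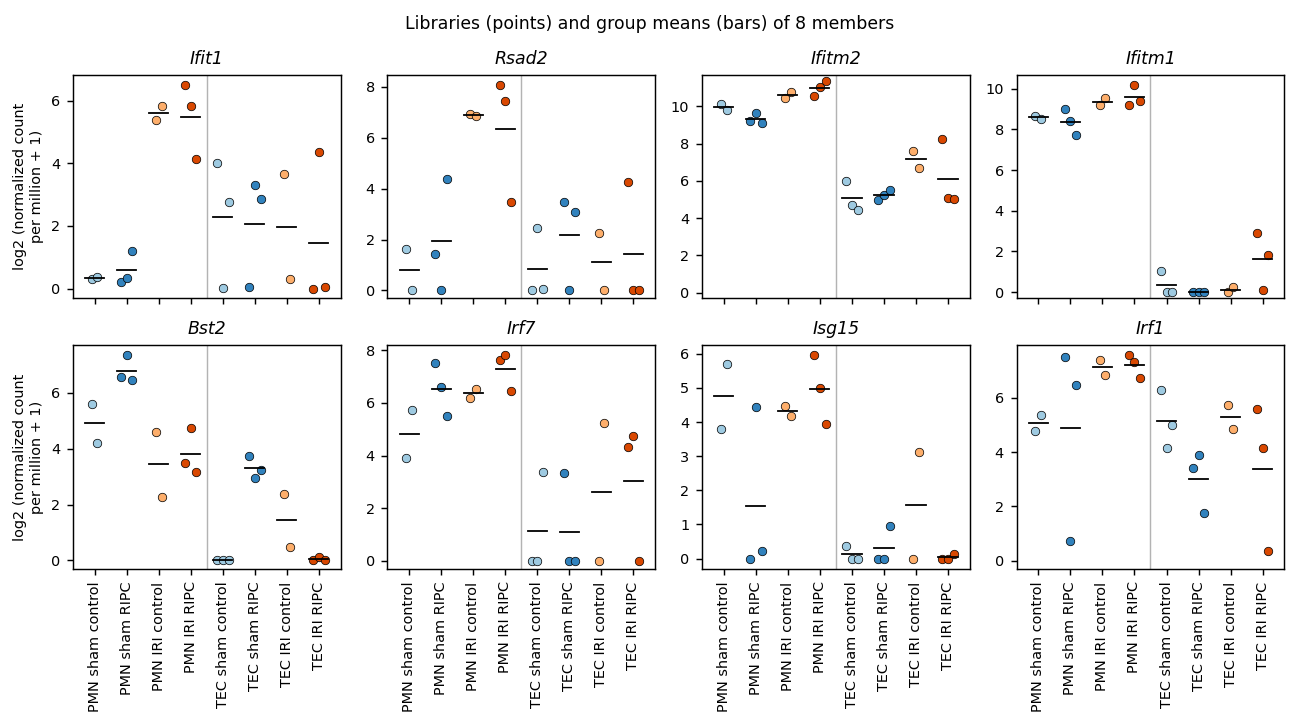
Levels of 8 interferon-stimulated genes, as log2 of the normalized CPM plus 1, by group, with 1 point per library and a bar at the mean of the log2 values of a group. The PMN libraries of IRI sit above those of sham surgery for Ifit1, Ifitm2 and Ifitm1, the groups overlap for Rsad2, Irf7, Isg15 and Irf1, and Bst2 is the gene shown whose PMN levels were mostly lower after IRI.

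Bst2 had the smallest p of the genes below 0. It was at 47.4 and 17.7 in sham control, 93.7, 162 and 88.1 in sham RIPC, 23.3 and 3.84 in IRI control and 10.2, 25.6 and 8.04 in IRI RIPC, and replicate 2 of sham control lay inside the range of IRI. The mean was 81.7 ± 54.4 (SD, n = 5) after sham surgery and 14.2 ± 9.66 (SD, n = 5) after IRI (log2 fold change -2.13, SE 0.69, adjusted p = 0.334). Bst2 shares no stretch of 50 bases with another gene. In the same comparison 8 of 10 monocyte and macrophage markers were below 0 and 2 above (median -2.05). All 10 proximal tubule markers were below 0 as well (median -2.50), and the part of either list in the result was not tested. Gbp7, a guanylate-binding protein, was at 28.7 and 3.11, at 0.0991, 0.638 and 0.311, at 45.9 and 5.72 and at 30.7, 43.5 and 12.4 in the same order of groups (log2 fold change 3.51, SE 1.09, adjusted p = 0.309), with its 3 lowest levels in sham RIPC.

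Of the remaining genes, which did not pass between IRI and sham surgery in PMNs, the sensors Zbp1 and Ifi204 reached their highest levels after IRI in PMNs. Zbp1 was at 1.68 to 14.5 after sham surgery and 18.9 to 69 after IRI, without overlap, and Ifi204 at 8.71 to 80.5 after sham surgery and 67.8 to 196 after IRI, with 1 library of sham surgery above the lowest of IRI. Gbp2, a guanylate-binding protein that coats pathogen vacuoles, was at 0 to 44.8 after sham surgery and 56.7 to 187 after IRI. The RNA sensors Ifih1 (MDA5) at 0.0958 to 66.9 and 3.67 to 73.9, Ddx58 (RIG-I) at 2.08 to 59.2 and 32.8 to 79.4 and Dhx58 at 1.87 to 59 and 0 to 64.1 (sham surgery first, then IRI, here and for the ranges that follow) overlapped between the operations.

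Several products of the OAS family make the 2′-5′ oligoadenylates that activate RNase L. In this family, Oas1a was at 23.4 to 61.2 after sham surgery and 4.8 to 101 after IRI. Oas2 was at 0 to 110.1 and 13.7 to 112, and Oas3 at 0.814 to 94.4 and 2.91 to 153. Oasl1 was at 0 to 30.9 and 6.5 to 38, and Oas1g at 0 to 32.6 and 0.984 to 31.9. All of these groups overlapped, and replicate 3 of IRI RIPC was the lowest library of IRI for Oas1a, Oas2, Oas3 and Oas1g. Ifit3 at 0 to 93.4 and 0 to 76.4 and Ifit3b at 0 to 23.7 and 0 to 24.3 hold 51.2% and 45% of stretches that also occur in other genes, mostly in each other, so that their reads cannot be divided with certainty, and Xaf1 at 1.01 to 69.6 and 1.15 to 44.5, Ifi44 at 0 to 17.4 and 0 to 42.1 and Cmpk2 at 0 to 37.3 and 6.27 to 101 overlapped as well. The Mx GTPases, which trap viral nucleocapsids, were at 0 to 30.9 and 0.178 to 27 for Mx1 and at 0 to 25.3 and 0 to 14 for Mx2, which the annotation lists as a polymorphic pseudogene. Both were below 1 in at least 2 libraries of each operation. Gbp3 at 3.63 to 45.4 and 0.615 to 42.6, Gbp5 at 6.42 to 20.1 and 3.83 to 25.6, Iigp1 at 0.775 to 51.5 and 0.204 to 20.7, Igtp at 4.4 to 44.2 and 0 to 65.8, Irgm1 at 2.73 to 90.2 and 10.4 to 101 and Ifi47 at 0 to 82.9 and 0 to 66.5, all GTPases of cell-autonomous immunity, did not separate the operations. Rtp4, a chaperone of membrane receptors, was at 0 to 74.4 and 36.9 to 85.8, Ifi35 at 25.7 to 67.3 and 21.7 to 61.6, Parp14, an ADP-ribosyltransferase, at 14.5 to 41.8 and 0.445 to 46.3. Trim30a was at 42.0 and 73.4 in sham control, 148, 76.8 and 29.5 in sham RIPC, 80.0 and 85.8 in IRI control and 91.1, 206 and 23.8 in IRI RIPC, with the range of IRI around that of sham surgery.

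The regulators of the pathway were present in PMNs and overlapped between sham surgery and IRI. Irf7, the factor that amplifies type I interferon responses, was at 13.9 and 52.6 in sham control, 180.2, 95.5 and 44.5 in sham RIPC, 72.5 and 91.3 in IRI control and 196, 222 and 87.5 in IRI RIPC (log2 fold change 0.96, SE 0.55, adjusted p = 0.486). Irf1, the early target of IFN-γ, was at 26.6 and 40.2, at 179, 0.638 and 86.8, at 166 and 114 and at 189.7, 158 and 105 in that order (log2 fold change 1.41, SE 0.98, adjusted p = 0.567). Replicate 1 of sham RIPC was inside the range of IRI for both. Stat2 was at 61.7 and 0.622, at 1.04, 95.1 and 12.1, at 52.3 and 29.3 and at 64.3, 93.3 and 1.80 (log2 fold change 0.45, SE 1.42, adjusted p = 0.990), and its partner Irf9 at 23.9 and 0.431, at 0.149, 92.1 and 13.8, at 54.2 and 51.5 and at 70.9, 41.1 and 51.1 (log2 fold change 1.35, SE 1.34, adjusted p = 0.715). Both ranged over more than 2 orders of magnitude within sham surgery. Isg15, the ubiquitin-like protein that is attached to newly made proteins, was at 12.9 and 51.1, at 0, 20.7 and 0.156, at 21.3 and 17.2 and at 61.1, 30.7 and 14.4 (log2 fold change 0.78, SE 1.49, adjusted p = 0.908). Usp18, the protease that removes Isg15 and dampens Ifnar2 signalling, was at 0.528 and 0, at 0, 21.8 and 0, at 0 and 19.8 and at 25.8, 37.6 and 0.820 (log2 fold change 3.34, SE 2.54, adjusted p = 0.605), and lay under 1 in libraries of both operations.

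In TECs, the same comparison of IRI with sham surgery gave no call among the 41 of 43 genes that could be tested (edgeR, adjusted p under 0.05), where 0.255% of 25917 genes were called higher and 1.15% lower. At an unadjusted p under 0.05, 3 of the 41 were higher and 2 lower, against 6.42% and 8.6% of all genes tested, DESeq2's Wald test called 1, and edgeR called 1, Cmpk2, without replicate 2 of IRI control, which leaves 1 library in that group. Shares of all genes are those of edgeR's main fits throughout, and none was counted for DESeq2. Ifit2 and Dhx58 were too low to be tested. The fitted change was above 0 for 29 of the 41, against 53.6% of all genes, and its median was 0.70 on the log2 scale against 0.15 over all genes. No gene of the 41 separated the groups without overlap, against 1.59% of all genes tested above and 3.01% below.

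The 3 smallest p-values in TECs belonged to Ifi47, Ifitm2 and Cmpk2. Ifi47, an immunity-related GTPase, was at 0, 6.43 and 0.0752 in sham control and 0, 7.73 and 21.8 in sham RIPC, and at 0 in all 5 libraries of IRI, which makes the mean after sham surgery at least 47.3-fold higher than the limit that 3 reads per library allow (adjusted p = 0.186). In 2 of the 6 libraries of sham surgery it was also at 0, and some of its sequence is shared with the overlapping gene Olfr56. Ifitm2 was at 63.5, 25.4 and 20.6 in sham control, 29.9, 37.0 and 44.0 in sham RIPC, 196 and 101 in IRI control and 301, 33.2 and 31.5 in IRI RIPC (log2 fold change 1.83, SE 0.61, adjusted p = 0.190). The 3 highest levels all came from IRI, and the other 2 libraries of IRI lay inside the range of sham surgery. Cmpk2, a mitochondrial nucleotide kinase encoded beside Rsad2, was at 0.620, 0.199 and 33.2 in sham control, 25.7, 22.6 and 27.4 in sham RIPC, 0 and 40.9 in IRI control and 0 in all 3 libraries of IRI RIPC (adjusted p = 0.224), and the highest level of all came from an IRI library.

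Among the other abundant genes of TECs, Ifitm3 was at 16.9, 2.14 and 5.86, at 5.24, 9.47 and 5.97, at 70.5 and 115 and at 60.5, 6.68 and 0 in the same order of groups (log2 fold change 2.55, SE 1.11, adjusted p = 0.302), high in the same 3 libraries of IRI as Ifitm2. Irgm1, which guards autophagy and the other immunity-related GTPases, was the gene of the 43 with the most even level in TECs of sham surgery, at 67.9, 48.0 and 95.2 and at 70.8, 82.8 and 48.9, and ranged from 8.2 to 177 after IRI (log2 fold change -0.10, SE 0.68, adjusted p = 1). Irf1 was at 77.2, 16.8 and 31.1, at 9.64, 13.7 and 2.39, at 51.7 and 27.8 and at 46.6, 17.0 and 0.277 (log2 fold change 0.59, SE 0.89, adjusted p = 0.845). Ifi35, which binds the transcriptional regulator Nmi, was at 1.03, 18.0 and 28.6, at 12.9, 11.9 and 1.37, at 12.8 and 12.8 and at 1.00, 14.3 and 0.185. Isg15 was at 0 in 7 of 11 TEC libraries, and its highest level was 7.78, in 1 library of IRI control. Irf7 was likewise at 0 in 6 of 11, and Usp18 ranged from 0 to 7.77. Neither Stat2 (0.564 to 43.7 after sham surgery and 3.09 to 21.1 after IRI) nor Irf9 (0.177 to 76.5 and 0.0923 to 34.2) passed the test. The summed level of the 43 genes was highest, at 925, in replicate 1 of IRI RIPC. Neutrophil markers did not overlap between IRI and sham surgery in TECs. Within IRI they summed to 61.8 and 84.9 in IRI control and 109, 72.9 and 34.6 in IRI RIPC. Replicate 2 of IRI RIPC, low in Ifitm2 and Ifitm3, thus lay above replicate 1 of IRI control, which was high in both. Erythroid markers summed to 72.8 to 832 after IRI and 4.40 to 726 after sham surgery, and the part of either list in these levels was not tested.

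The effect of RIPC was then compared with the control procedure within each kind of surgery, which is the comparison for which the experiment was laid out. In PMNs after sham surgery none of the 43 genes passed (edgeR), where 0.004% of the 25002 genes were called, and at an unadjusted p under 0.05, 2 were higher and 1 was lower, against 1.22% and 3.38% of all genes, while DESeq2's Wald test called 2. The fitted change was above 0 for 31 of the 43, against 48.5% of all genes, with a median of 0.81 where genes at 0 reads in a group were placed at their bound, against 0 over all genes. In the same comparison 9 of 10 monocyte and macrophage markers were above 0 (3 without overlap) and 10 of 11 neutrophil markers were below 0 (median -1.04), and their part in the result was not tested. The 3 smallest p-values belonged to Gbp7 (levels given above, higher in both control libraries than in the 3 of RIPC, log2 fold change -5.51, SE 1.53), to Ifi47 and to Oasl2, each with an adjusted p of 0.705. Ifi47 had 0 reads in both sham control libraries and levels of 62.4, 82.9 and 22.6 in sham RIPC, at least 424-fold higher. Oasl2, an OAS-like protein that enhances RNA sensing, was at 6.22 and 18.3 in sham control and at 99.5, 72.4 and 34.1 in sham RIPC (log2 fold change 2.46, SE 0.99). Groups did not overlap for 6 genes that were higher with RIPC (Ifit3, Xaf1, Oasl2, Ifi47, Bst2 and Rtp4) and 2 that were lower (Gbp7 and Ifitm2), against 4.7% and 8.01% of all genes.

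In PMNs after IRI none of the 43 genes passed in the comparison of RIPC with control (edgeR), none of the 25002 genes was called, and 1 of the 43 was higher and 0 lower at an unadjusted p under 0.05, against 0.84% and 1.88% of all genes. DESeq2's Wald test called none either. Igtp, an immunity-related GTPase of which 11.8% of the sequence is shared with Irgm2, was at 0 and 1.14 in IRI control and at 65.8, 56.8 and 0.164 in IRI RIPC (log2 fold change 6.12, SE 2.65), Iigp1 was at 6.02 and 20.7 against 0.204, 1.02 and 4.59 (log2 fold change -2.82, SE 1.78), and Ifitm3 was at 213 and 301 against 461, 422 and 356 (log2 fold change 0.64, SE 0.43), each with an adjusted p of 0.920. Igtp overlapped between the groups through 1 library of RIPC, and Iigp1 and Ifitm3 did not overlap. In all, 2 genes lay above and 2 below without overlap, against 6.87% and 9.54% of all genes, and the fitted change was above 0 for 30 of the 43, against 49.4% of all genes, with a median of 0.32 on the log2 scale.

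The difference between the RIPC effects after IRI and after sham surgery was tested in PMNs as an interaction, and none of the 43 genes passed (edgeR, with 0% of all genes called), while 2 were higher and 1 lower at an unadjusted p under 0.05, against 3.3% and 2.44% of all genes, and DESeq2's Wald test called 1. Fitted differences were above 0 for 17 of the 43, against 50.3% of all genes. The smallest p-values were those of Ifi47, whose sham control group was at 0 reads, of Gbp7 (log2 difference 5.62, SE 2.09) and of Ifitm2 (log2 difference 1.06, SE 0.43), with an adjusted p of 0.719 for each. Ifitm2 was lower with RIPC after sham surgery, where 596, 791 and 551 stood against 1124 and 901, and it overlapped after IRI, where 1508, 2122 and 2621 stood against 1372 and 1729.5.

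In TECs, RIPC after sham surgery gave no call among the 41 genes tested (edgeR, with 0% of all genes called), and 3 genes were higher and 0 lower at an unadjusted p under 0.05, against 3.34% and 1.2% of all genes, while DESeq2's Wald test called 1. The fitted change was above 0 for 22 of the 41, against 55.8% of all genes. Bst2 had 0 reads in all 3 sham control libraries and levels of 12.5, 6.78 and 8.49 in sham RIPC, at least 93.4-fold higher (unadjusted p = 0.00309, adjusted p = 0.708, edgeR). Usp18 and Zbp1 followed with the same adjusted p, Usp18 at 0 in the 3 control libraries and at 2.43, 0.227 and 0.0884 with RIPC, and Zbp1 at 0 in the 3 control libraries and at 0.797, 0 and 1.59 with RIPC. These are at least 9.24-fold and 8.04-fold higher in the mean, and both rest on 1 or 2 libraries above the limit of detection. Groups did not overlap for 3 genes that were higher (Usp18, Ifi204 and Bst2) and 2 that were lower (Irf1 and Ddx58), against 5.38% and 2.45% of all genes.

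RIPC after IRI gave no call in TECs either (edgeR), where 0.00386% of the 25917 genes were called, and at an unadjusted p under 0.05, 1 of the 41 genes was higher and 3 were lower, against 1.72% and 2.63% of all genes, while DESeq2's Wald test called 1. The fitted change was above 0 for 18 of the 41, against 54.1% of all genes. Without replicate 1 of IRI control, edgeR called 1 gene, Cmpk2, but the 1 control library then left is assumed to vary like the other groups. Cmpk2 was at 0 and 40.9 in IRI control and at 0 in IRI RIPC, at least 162-fold lower in the mean through 1 control library. Oasl1, a regulator of Irf7 translation, was at 0 in both control libraries and at 14.2, 0 and 10.5 with RIPC, at least 64.5-fold higher, and Zbp1 was at 4.38 and 1.37 against 0 in all 3 libraries of RIPC, at least 22.8-fold lower. Each of the 3 had an adjusted p of 0.778. Groups did not overlap for 1 gene above (Ifi44) and 5 below (Xaf1, Zbp1, Gbp2, Ifitm3 and Bst2), against 7.89% and 8.97% of all genes. Bst2, at 12.5, 6.78 and 8.49 with RIPC after sham surgery, was at 4.23 and 0.412 in IRI control and at 0, 0.0846 and 0 in IRI RIPC.

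As an interaction in TECs, the RIPC effect after IRI minus that after sham surgery passed for none of the 41 genes (edgeR, with 0% of all genes called), with 1 higher and 6 lower at an unadjusted p under 0.05, against 2.96% and 4.25% of all genes, and with 1 called by DESeq2's Wald test. The fitted difference was above 0 for 18 of the 41, against 48.1% of all genes. Cmpk2 was called without replicate 1 of IRI control, again with 1 library left in that group. Bst2 had the smallest p (unadjusted p = 8.72e-04, edgeR), followed by Cmpk2 and Zbp1, and the adjusted p was 0.689 for each. All 3 had a group at 0 reads, so that the size of the difference is not given.

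Between the cell types, PMNs were set against TECs in 1 fit of all 21 libraries. After sham surgery 12 of the 43 genes were higher in PMNs and 0 were lower, where 1.49% of 31769 genes were called higher and 1.13% lower. At an unadjusted p under 0.05, 21 were higher and 1 was lower, against 8.23% and 9.31% of all genes. All 5 membrane and trafficking proteins were among the 12, with 3 of 6 OAS genes and 3 of 5 nucleic acid sensors, and with none of the IFIT and other antiviral effectors or the transcription factors. The fitted difference was above 0 for 35 of the 43, against 49.2% of all genes, and groups did not overlap for 12, all higher in PMNs, against 3.76% of all genes. Where 1 library was left out, 9 to 15 were called.

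Ifitm2 was at 551 to 1124 in PMNs and at 20.6 to 63.5 in TECs of sham surgery (log2 difference 4.46, SE 0.56, adjusted p = 8.14e-05), and Ifitm3 at 215 to 497 and at 2.14 to 16.9 (log2 difference 5.54, SE 1.03, adjusted p = 0.00367). Ifitm1 was at 209 to 509 in PMNs and had reads in just 1 of the 6 TEC libraries, at 1.03 (adjusted p = 8.3e-05). Bst2 was at 17.7 to 162 in PMNs and at 0 in the 3 sham control libraries of TECs, and its highest TEC level was 12.5 (adjusted p = 3.76e-04). Oasl2 was at 6.22 to 99.5 in PMNs and had a highest TEC level of 2.62 (log2 difference 7.88, SE 1.47, adjusted p = 0.00388 by edgeR). The sham control libraries of TECs held 1, 0 and 0 reads of it, under the limit of detection, and the fitted size rests partly on them. Trim30a was at 29.5 to 148 against 0 to 2.21 (log2 difference 6.00, SE 1.16, adjusted p = 0.00542 by edgeR). Thus the lowest PMN library exceeded the highest TEC library for each of these 6 genes. The Z-nucleic acid sensor Zbp1 was at 1.68 to 14.5 against 0 to 1.59 (adjusted p = 0.00665), and Dhx58, the helicase that tunes RNA sensing, at 1.87 to 59.0 against 0 to 0.0758, at least 212-fold higher in the mean (adjusted p = 0.00883). The remaining calls were Ifi204, Oas1a, Oas2 and Rtp4, with adjusted p-values of 0.0129 to 0.0370, and 57.6% of the sequence of Oas1a is shared with Oas1g.

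After IRI, 9 of the 43 genes were higher in PMNs than in TECs and 0 were lower, where 1.49% of all genes were called higher and 1.17% lower. At an unadjusted p under 0.05, 26 were higher and 0 lower, against 6.67% and 7.78% of all genes. In all, 39 of 43 fitted differences were above 0 against 46.3% of all genes, and 17 genes did not overlap, all higher in PMNs, against 3.94% of all genes. Ifitm2 was at 1372 to 2621 in PMNs and at 31.5 to 301 in TECs (log2 difference 3.74, SE 0.61, adjusted p = 0.00145), Ifitm1 at 581 to 1171 and at 0 to 6.46 (log2 difference 10.42, SE 1.65, adjusted p = 0.00151) and Oasl2 at 30.3 to 212 and at 0 to 0.678 (log2 difference 8.69, SE 1.75, adjusted p = 0.00751). Zbp1 was at 18.9 to 69.0 and at 0 to 4.38 (adjusted p = 0.00988). Those 4 genes did not overlap. Bst2 did, at 3.84 to 25.6 and at 0 to 4.23, and nonetheless passed (adjusted p = 0.0108 by edgeR). Its TEC libraries of IRI RIPC held 0, 2 and 0 reads. The fitted size (log2 difference 5.66, SE 1.16) thus rests partly on a group under the limit of detection. Ifi47 passed as well, at 0 to 66.5 against 0 in every TEC library, at least 341-fold higher in the mean (adjusted p = 0.0287 by edgeR). Oas1a was at 4.80 to 101 and at 0 to 2.91 (adjusted p = 0.0295), and Ifi204, a DNA-binding PYHIN protein, at 67.8 to 196 and at 0.279 to 12.5 (log2 difference 4.79, SE 1.25, adjusted p = 0.0424). Trim30a was the last of the 9. Without replicate 1 or replicate 2 of the IRI control group of TECs, the calls numbered 5 and 4 of the 43, with Ifitm1, Ifitm2 and Oasl2 in both. Neutrophil, monocyte and macrophage markers all differ between the cell types in the same direction as these genes, and the share of the monocytes and macrophages in the PMN levels was not tested.

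**Figure D5:**
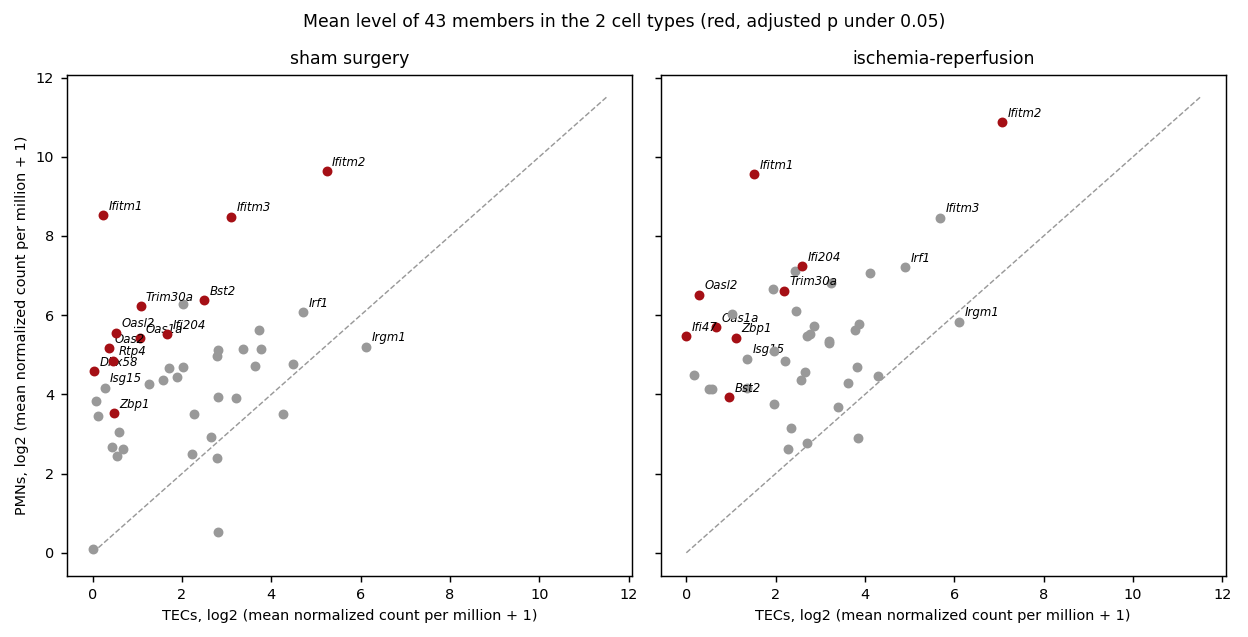
Mean level of each of the 43 genes in TECs (x axis) and in PMNs (y axis), as log2 of the mean normalized CPM plus 1, after sham surgery (left) and after IRI (right), with red points for an adjusted p under 0.05 and a dashed line of equal levels. The red points, 12 after sham surgery and 9 after IRI, all lie above the line, and Irgm1 lies below it in both panels.

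Not all of the genes were higher in PMNs. Irgm1 averaged 35.8 ± 39.4 (SD, n = 5) in PMNs and 68.9 ± 18.6 (SD, n = 6) in TECs after sham surgery, and 56.0 ± 32.8 and 68.0 ± 71.8 (SD, n = 5 each) after IRI, with adjusted p-values of 0.364 and 1. Ifit1 averaged 0.450 ± 0.477 (SD, n = 5) in PMNs and 6.03 ± 5.71 (SD, n = 6) in TECs after sham surgery (log2 difference -3.91, adjusted p = 0.265), and 51.6 ± 26.5 and 6.25 ± 8.86 (SD, n = 5 each) after IRI. The IRI effects of the cell types were compared directly as an interaction. None of the 43 genes passed in that test (edgeR, with 0% of all genes called), while 3 were higher in PMNs and 1 lower at an unadjusted p under 0.05, against 5.34% and 4.42% of all genes, and DESeq2's Wald test called 5. The fitted difference was above 0 for 23 of the 43, against 47.9% of all genes, and Ifi47 was called without replicate 2 of the IRI control group of PMNs, which leaves 1 library in that group. The smallest p-values were those of Ifi47 (adjusted p = 0.157), with TEC groups at 0 reads, of Ifit1 (log2 difference 6.95, SE 2.47, adjusted p = 0.329) and of Cmpk2 (adjusted p = 0.453). The rise of Ifit1 in PMNs is therefore not shown to differ from its change in TECs.

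The rest of the interferon pathway was read from fixed lists. Of 21 interferon genes, 7 had no read in any library, and 2 were high enough to be tested in PMNs and 2 in TECs. Ifnb1 had reads in 2 libraries, at 10.3 in 1 library of sham RIPC and 5.48 in 1 of IRI control, both of PMNs. The receptor chain Ifnar1 averaged 79.4 in PMNs after sham surgery and 219 after IRI (log2 fold change 1.40, SE 0.43, adjusted p = 0.302), and Ifngr1 averaged 283 and 438 (log2 fold change 0.58, SE 0.48, adjusted p = 0.639). In TECs their log2 fold changes after IRI were -0.17 for Ifnar1 and -0.56 for Ifngr1, neither past the threshold. None of the 6 receptors, 4 signal transducers, 14 upstream sensors, 6 negative regulators and 38 other interferon-induced genes tested in PMNs passed in either direction between IRI and sham surgery.

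A list of 12 genes held those of antigen processing and MHC class I, with Ciita and Cd274 added. In PMNs 1 of them, Cd274, rose after IRI, where 0.364% of all genes were called higher. No gene of antigen processing or MHC class I on the list passed. Cd274, which encodes the inhibitory ligand PD-L1 and is induced by IFN-γ, was at 0.853 and 0.527 in sham control, 1.68, 8.2 and 34.1 in sham RIPC, 86.4 and 149 in IRI control and 419.8, 285 and 179 in IRI RIPC (log2 fold change 5.86, SE 0.90, adjusted p = 0.0374 by edgeR's quasi-likelihood test). The groups did not overlap, and replicate 3 of sham RIPC was the library of sham surgery closest to IRI, as it was for Ifit1. Cd274 did not pass with the control groups alone (adjusted p = 0.586 by edgeR) or the RIPC groups alone (adjusted p = 0.210). The call was lost in 6 of the 10 fits that left out 1 PMN library, with adjusted p-values of 0.0582 (without replicate 2 of sham RIPC) to 0.139 (without replicate 2 of sham control), and it was lost without replicate 2 of IRI control and without each replicate of IRI RIPC.

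Between the cell types, 2 of 6 receptors were higher in PMNs than in TECs after sham surgery and 3 of 6 after IRI, where 1.49% of all genes were called higher in each comparison. Ifngr1 was higher in both, with 283 against 38.1 after sham surgery (log2 difference 2.91, SE 0.55, adjusted p = 0.00402) and 438 against 26.7 after IRI (log2 difference 4.02, SE 0.64, adjusted p = 0.00115), and Ifnar1 passed after IRI, with 219 against 19.7 (log2 difference 3.65, SE 0.90, adjusted p = 0.0303). Ifngr1 after sham surgery was lost without replicate 1 of sham control in PMNs (adjusted p = 0.0553), and Ifnar1 after IRI was lost without replicate 1 of IRI RIPC in PMNs (adjusted p = 0.0573) and without replicate 1 (adjusted p = 0.188) or replicate 2 (adjusted p = 0.0613) of IRI control in TECs. The other interferon-induced genes called in PMNs numbered 8 of 40 after sham surgery and 7 of 40 after IRI, against the same 1.49% of all genes, and Ly6e, a membrane protein of the same broad class as Bst2, was at 728 against 52.3 after sham surgery (log2 difference 3.77, SE 0.40, adjusted p = 1.4e-05). No gene of these lists that was called was lower in PMNs.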

How the data were processed

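RNA-Seq libraries of PMNs and TECs were grouped by their sample labels into 8 groups, with 2 files per library. The deposited estimated counts per transcript, not normalized, had been made by the authors with Trim Galore 0.6.4 and Salmon 1.0.0 against a Gencode mouse transcriptome (vM23 in the study's methods, mm10), and the authors deposited Salmon's TPM values beside them. Here, the estimated counts of both files were added per library, summed over the transcripts of a gene (Gencode M21 of GRCm38, in which 884 of 140748 transcripts had no match, holding 0.139% to 0.255% of the reads) and rounded. TPM values were averaged over both files and used only to order genes by level. Genes of the sex chromosomes and the mitochondrial genome (3717 genes) were left out, as in the study. The second file of a library held 99.5% to 100.2% of the reads of the first, and what distinguishes the files is not given in the sources used here.

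Tests were edgeR 4.0.16 quasi-likelihood F tests (limma 3.58.1, R 4.3.3) with TMM, filterByExpr by group and 1 mean per group, fitted to 25002 genes in PMNs, 25917 in TECs and 31769 in all 21 libraries for comparisons between cell types. Benjamini-Hochberg adjusted p-values over all genes of a fit were taken as calls under 0.05. Common biological coefficients of variation were 1.65, 1.54 and 1.67 in these fits. The script was tested on simulated counts. An SE is the log2 fold change divided by the root of F. Where a group had 0 reads, no fold change is given, or a bound against 3 reads per library.

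The 43 genes and all lists were chosen with earlier results of these data known. By rule, fold changes are given for up to 8 of the 43 per direction with an adjusted p under 0.05, or for the 3 smallest p-values where none passed. Values of libraries are given for these, for the 5 highest mean TPM of each cell type, and for Isg15, Irf7, Irf1, Stat2, Irf9 and Usp18. Of the other lists, Ifnar1, Ifngr1 and up to 4 called genes per direction were to be named, of which those described are a part, and 1 gene named by the rule is not reported here. Sequences are RefSeq's promoter windows (GRCm38.p6), printed for genes called in any comparison with a match before the start, and for Isg15 and Irf1. Shared sequence was counted as 50-base stretches of a gene's transcripts found in other genes. Alternatives were RLE size factors, no filter, at least 10 reads in every library, either file alone, robust dispersions, a replicate block, paralog pairs added, RIPC or control groups alone, all libraries in 1 fit, each library left out, DESeq2 1.42.0 and apeglm 1.24.0.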

Additional observations from a re-analysis of the deposited data

How the results depend on the processing

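Of the 43 genes, the number called between IRI and sham surgery in PMNs went from 1 (Ifit1) to 0 with all libraries in 1 fit, with the control groups alone, with the RIPC groups alone, with file 2 alone and with the replicate block, and to 6 without a filter on low counts, 7 with DESeq2's Wald test and 9 with apeglm. Where leaving out 1 library leaves a group with 1, that library is assumed to vary like the other groups. Leaving out 1 library gave 0 to 1, with Rtp4 in place of Ifit1 when replicate 1 of sham control was left out. In TECs the same comparison went from 0 to 1 with at least 10 reads in every library (Ifitm2, where just 4 of the 43 were tested), to 1 with DESeq2's Wald test (Ifi47), to 1 with apeglm (Ifitm2), to 4 without a filter and to between 0 and 1 where 1 library was left out. The change of Cmpk2 in TECs reversed from below 0 to 0.853 with the control groups alone, since the RIPC group of IRI, all at 0 reads, then leaves the comparison. For RIPC against control after sham surgery, the count went from 0 to 2 in PMNs with the Wald test and 2 with apeglm (Gbp7 and Ifi47), to 1 without a filter (Ifi47), and to 1 in TECs with either DESeq2 method (Bst2). After IRI in TECs it went to 1 with the Wald test (Oasl1), 1 without a filter (Cmpk2) and 0 to 1 where 1 library was left out. For the interaction of RIPC and surgery it went to 1 in PMNs with the Wald test, apeglm or no filter, and to 1 in TECs with all libraries in 1 fit, the Wald test or no filter, and 0 to 1 where 1 library was left out. Between PMNs and TECs, the 12 calls after sham surgery became 2 with at least 10 reads in every library and 20 with the Wald test, 1 of them (Ifit1) lower in PMNs, and the 9 after IRI became 2, 19 with the Wald test, 20 without a filter, and 4 to 12 where 1 library was left out. The IRI effect of PMNs minus that of TECs went from 0 to 5 with the Wald test, 4 without a filter, and 0 to 1 where 1 library was left out. Between PMNs and TECs, the filter of at least 10 reads in every library left at most 4 of the 43 to be tested. Most of those 12 and 9 calls were therefore not tested with it. Beyond what their construction shows, the cause of these differences was not tested. RIPC against control in PMNs after IRI stayed at 0 under all alternatives. Shares over all genes were counted for the main fits alone. The counts from DESeq2, apeglm and the fits without a filter therefore do not show more calls among the 43 than among all genes. For single genes, 1077 values kept their direction and side of the threshold, 44 lost the threshold, 31 gained it and 1 reversed.

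Within a cell type, libraries with the same replicate number did not deviate together. Correlations were -0.02 to 0.03 over 13 pairs in PMNs and -0.10 to 0.14 over 15 pairs in TECs, 1 of them above 0.1. In groups of 2 libraries the deviations mirror each other, which limits this check. Libraries of PMNs and TECs with the same number were not compared, and the tests between cell types treat them as independent. With the replicate number as a block, the adjusted p of Ifit1 in PMNs was 0.155, that of Cd274 was 0.121, and 11 and 8 genes were called between cell types after sham surgery and after IRI. The alternatives for Cd274, Ifngr1, Ifnar1 and Ly6e were added after the data were seen, and Ly6e kept its call in all of them. Depth limits the genes near 3 reads, and groups of 2 or 3 libraries limit all comparisons.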
